A study of Mus musculus with 36 samples.

Results

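PAX6 peaks whose centre lay 10 kb or less from the nearest transcript start of any gene were selected from the peaks of mouse enteric precursor cells (EPCs), which gave 550 peaks of 2247. The distance to the start was the only criterion, and sequence, score and overlap with other lists played no part in it. Pool 1 contributed 117 of its 491 peaks, pool 2 contributed 242 of 1032 and pool 3 contributed 191 of 724. The same rule applied to the negative control, ChIP with mouse IgG, kept 229 of 1007 peaks.

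CD-1 mice of postnatal day 7 were the source of the EPCs, which were grown from gut tissue as neurosphere-like bodies (NLBs). Each NLB is a floating cell cluster in which stem cells and more mature neural cells are mixed, so the chromatin has more than one source, and peak lists hold no expression by which their identity could be checked. The labels name no allele or agent, and the groups differ in the antibody and in the pool. Pool 1 consisted of 4 PAX6 ChIP libraries, pool 2 of 6 and pool 3 of 6, each with as many inputs, and all 4 libraries of IgG were labelled as pool 1. Libraries were merged before peaks were called, so the spread between libraries is unknown, the 3 pools are the only replicates and the depth behind a peak is unknown. Every peak has a score, the p-value of the peak caller on a logarithmic scale, which reached at least 50.04, and since it depends on depth it was compared only within a list, as a percentile (100 for the strongest peak).

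PAX6 is a transcription factor with a paired domain and a homeodomain, both of which bind DNA, and it is known for its part in the development of the eye, the brain and the pancreatic islets. A transcript start is where RNA polymerase begins, and the DNA just before it, the promoter, is bound by general and specific factors. Many mouse promoters, above all those of genes used in most cells, are CpG-rich, whereas CG dinucleotides are rare in the rest of the genome. Runs of alternating C and A, or T and G on the other strand, are among the most common simple repeats of the mouse genome.

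Peaks that covered a start were found in PAX6 pools 2 and 3, mainly in pool 2, and most of them lay on CpG-rich promoters. PAX6 pool 1 had 0 and the IgG list, whose libraries share the label of pool 1, had 1. The DNA just before the start is shown for 4 of these promoters and, for contrast, for 2 start-covering peaks outside CpG-rich DNA (mm9, strand of the gene, 5′ to 3′, with the last base next to the start and CG dinucleotides in capitals). None of these bases lies in an annotated exon. The stretches are chr13:5860615-5860734 (plus strand) for Klf6, chr19:42164805-42164924 (plus) for Pi4k2a, chr4:154460492-154460611 (minus) for Rer1, chr5:36235848-36235967 (plus) for Afap1, chr6:141600656-141600775 (plus) for Slco1b2 and chr1:27099226-27099345 (plus) for Gm11161. All 6 are from pool 2.
Klf6: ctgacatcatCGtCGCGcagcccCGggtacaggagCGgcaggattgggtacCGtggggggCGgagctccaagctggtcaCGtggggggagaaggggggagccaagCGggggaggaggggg
Pi4k2a: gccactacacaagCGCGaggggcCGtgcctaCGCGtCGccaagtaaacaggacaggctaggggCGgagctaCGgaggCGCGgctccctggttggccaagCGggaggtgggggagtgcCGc
Rer1: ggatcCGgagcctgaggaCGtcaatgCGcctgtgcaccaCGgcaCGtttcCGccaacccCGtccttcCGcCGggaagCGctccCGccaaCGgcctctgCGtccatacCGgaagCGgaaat
Afap1: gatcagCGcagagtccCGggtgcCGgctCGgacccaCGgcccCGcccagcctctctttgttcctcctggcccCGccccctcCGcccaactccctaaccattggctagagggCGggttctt
Slco1b2: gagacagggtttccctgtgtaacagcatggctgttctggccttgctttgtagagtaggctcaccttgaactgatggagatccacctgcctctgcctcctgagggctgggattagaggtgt
Gm11161: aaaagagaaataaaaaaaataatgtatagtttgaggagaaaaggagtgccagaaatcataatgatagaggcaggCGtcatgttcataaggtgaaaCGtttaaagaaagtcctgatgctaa

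These 120 bases held 9 CG dinucleotides before Klf6, 12 before Pi4k2a, 15 before Rer1 and 9 before Afap1, against 0 before Slco1b2 and 2 before Gm11161. GC boxes (GGGCGG on either strand), the binding site of SP and KLF factors, numbered 4 before Afap1, 1 each before Klf6 and Pi4k2a, and 0 before Rer1, Slco1b2 and Gm11161.

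In pool 2, 16 of 242 members covered a transcript start, which is 6.61% (Wilson 95% interval 4.11 to 10.5). The count was 6 of 191 in pool 3 (3.14%, 1.45 to 6.68), 0 of 117 in pool 1 (upper bound 3.18%) and 1 of 229 for IgG (0.437%, 0.0771 to 2.43). Over the 3 pools the share was 3.25% ± 3.31 (SD, n = 3), so the SD between pools is as large as the mean. The PAX6 members of the 3 pools exceeded IgG by 3.56 percentage points (Newcombe 95% interval 1.16 to 5.58). This and the following intervals take peaks as units, cover counting error only and leave out the spread between pools and libraries. The difference from IgG was 6.17 points in pool 2 (2.98 to 10.0) and 2.70 points in pool 3 (0.0876 to 6.26), while pool 1 lay 0.437 points below IgG (-2.43 to 2.76 for the difference). Pool 2 also exceeded pool 1, by 6.61 points (2.57 to 10.5), and its excess of 3.47 points over pool 3 was within counting error (-0.866 to 7.68). With pool 2 left out, the excess over IgG was 1.51 points and its interval included 0 (-0.744 to 3.78). The IgG libraries share the label of pool 1, the pool with no such peak, so antibody and pool cannot be told apart for pools 2 and 3. No genome share was computed for covering a start, so these differences are between lists only.

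A window was called CpG-rich when its central 300 bp had a GC content of at least 50% and at least 0.6 of the CG dinucleotides that its base composition predicts. Of the 16 start-covering peaks of pool 2, 12 met this definition, with a GC content of 62.3 to 71.3%, and all 12 had their centre 1 to 237 bp from the start. Klf6, which encodes a zinc finger transcription factor, had a peak at chr13:5860409-5860850 with a score of 80.64 (percentile 67.3) and its centre 106 bp upstream. The peak at Hbxip, which encodes a subunit of the lysosomal Ragulator complex, scored 90.89 (percentile 82.1) at chr3:107081754-107082272, with its centre in a coding exon 237 bp downstream. At Pi4k2a, the gene of a phosphatidylinositol 4-kinase, the peak scored 68.98 (percentile 50.8) at chr19:42164668-42165030, 76 bp upstream. Bbs5, a gene of the BBSome of primary cilia, had a peak at chr2:69485098-69485532 with a score of 66.87 (percentile 35.4), over 6 annotated starts.

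Promoters that serve 2 genes on opposite strands made up 3 of these 12. The peak at chr11:72990322-72990858 covered starts of both Tax1bp3, which encodes a PDZ domain protein, and Tmem93 (score 61.58). The peak at chr13:67033739-67034269 covered Mterfd1 and Ptdss1, a phosphatidylserine synthase gene (score 61.86). The third, at chr4:154460452-154460739, covered Morn1 and Rer1, which encodes a protein that returns membrane proteins from the Golgi to the endoplasmic reticulum (score 84.05). The other 5 lay at Smek1, a regulatory subunit gene of protein phosphatase 4 (63.03), Afap1, the gene of an actin filament-associated protein (62.63), Rwdd2b (63.36), 2310044G17Rik (71.68) and the lincRNA gene 1700028E10Rik (59.20). These promoter peaks were not the strong peaks of their list: the 12 ranged from percentile 10.3 to 82.1, with a median of 30.1.

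The 4 start-covering peaks of pool 2 outside the definition fell into unlike pairs. Gcc1, which encodes a Golgi protein (score 62.24), and Ccdc79 (84.05) had a GC content of 67% and 61.3% with fewer CG dinucleotides than the definition asks. Gm11161 and Slco1b2, the gene of a liver transporter of organic anions, had a GC content of 39% and 38% and far higher scores, 312.92 (percentile 99.4) and 184.61 (percentile 97.6). The Slco1b2 peak had its centre in an intron, 154 bp upstream of the covered start. Repeats other than runs of CA or TG were not looked for, here or at any other peak.

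In pool 3, CpG-rich start-covering peaks were those at Ric8, the gene of a chaperone and exchange factor of G protein alpha subunits, at chr7:148043187-148043518 with a score of 79.43 (percentile 35.6), and at AW146020, at chr6:81873561-81873887 with 159.13 (percentile 85.6). The other 4 had a GC content of 33.3 to 49.0%. They lay at Gcm2, the gene of a parathyroid transcription factor (79.43), at the miRNA genes AC161265.1 and AC161265.2 (138.11), and at the neighbouring predicted genes Gm10801 (877.96) and Gm10800 (1451.67, the highest score of the list). Each of these last 2 genes had 2 members of pool 3, all within chr2:98502228-98507641, so their start-covering peaks are close neighbours. The difference of pool 3 from IgG was not recomputed without them. The single IgG peak over a start, at Gm17269, scored 63.00 with a GC content of 40%. None of the 22 PAX6 peaks over a start overlapped an IgG peak or a peak of another pool.

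**Figure D1:**
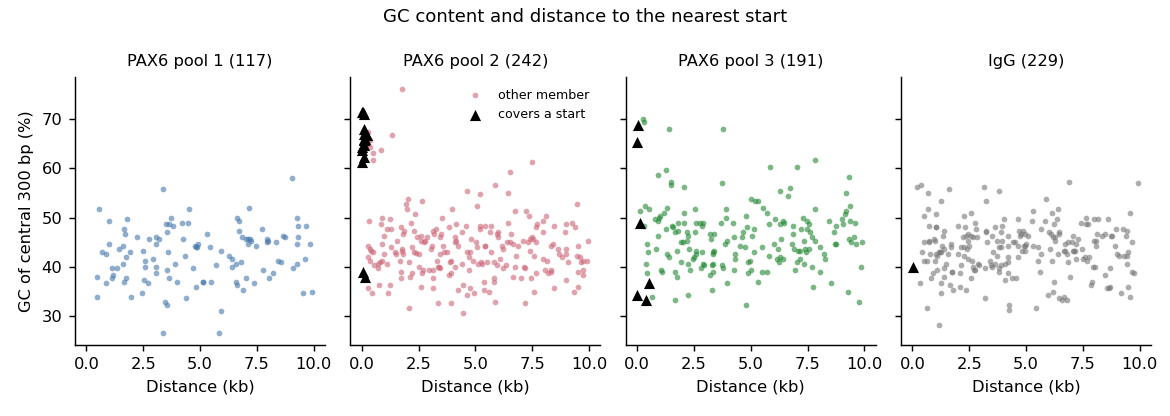
GC content in percent of the central 300 bp of each peak within 10 kb of a start (vertical axis) against the distance of its centre from the nearest start in kb (horizontal axis), with 1 panel per peak list and black triangles for peaks that cover a start. Triangles above 60% are found in pool 2 and pool 3, whereas pool 1 has no triangle and IgG has 1, at 40%.

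Members with their centre within 1 kb of a start made up 18.2% of pool 2 (44 of 242) and 12.6% of pool 3 (24 of 191), but 5.98% of pool 1 (7 of 117) and 8.73% of IgG (20 of 229). When mm9 was cut into tiles of 300 bp, 15.1% of the tiles within 10 kb lay within 1 kb. The mean over the pools was 12.2% ± 6.11 (SD, n = 3), and the excess of all PAX6 members over IgG, 4.90 points, had an interval that included 0 (-0.191 to 9.24). It was 1.33 points without pool 2 (-3.90 to 6.23), and it became a call without pool 1 (6.97 points, 1.60 to 11.8) and without pool 3 (5.47 points, 0.0361 to 10.5). Pool 2 alone exceeded IgG by 9.45 points (3.28 to 15.6) and pool 1 by 12.2 points (4.91 to 18.4). With a limit of 500 bp in place of 1 kb, the excess over IgG for the 3 pools was 6.54 points (3.03 to 9.48). At 500 bp the PAX6 share was 8.73% (48 of 550), near the 8.10% of tiles within 10 kb, whereas IgG had 2.18%. Within 1 kb the PAX6 share was 13.6% (75 of 550), against 15.1% of tiles. The excess of the 3 pools together is thus over the IgG list and not over the genome.

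The lists parted only in the closest class. Of the members, 13.2% of pool 2, 7.33% of pool 3, 1.71% of pool 1 and 2.18% of IgG lay 0 to 500 bp from a start, against 8.10% of the tiles within 10 kb. More than 5 kb away the shares ranged from 42.1% (pool 2) to 46.2% (pool 1), with 42.4% for IgG and 40% of tiles. The median distance ranged from 4130 bp (pool 2) to 4786 bp (pool 1), and that of IgG was 4248 bp.

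**Figure D2:**
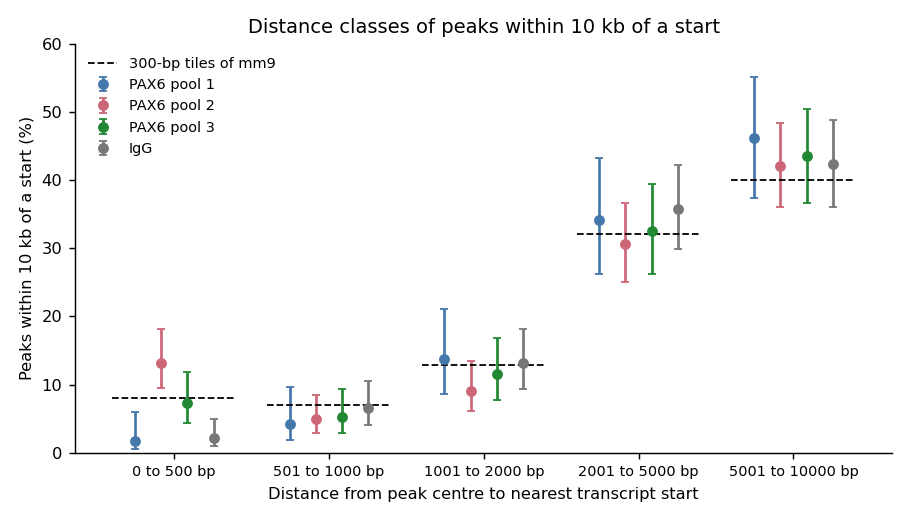
Share of the peaks within 10 kb of a start, in percent, that falls into each class of distance from the nearest start, by peak list. Points are shares, bars are Wilson 95% intervals and dashed lines give the share of 300-bp tiles of mm9, and in the class of 0 to 500 bp pool 2 stands at 13.2% against 2.18% for IgG.

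The 10 kb limit itself did not separate PAX6 from IgG. Of the peaks on chromosomes 1 to 19 and X, 24.8% of PAX6 peaks (550 of 2219) and 22.8% of IgG peaks (229 of 1006) were members, a difference of 2.02 points (-1.19 to 5.11), and 27.5% of all tiles of mm9 lie that close to a start. At the limit, the last members inside were at Gm14322 in pool 1 (9936 bp, score 64.47), Gm11019 in pool 2 (9964 bp, 53.25) and Lpcat1 in pool 3 (9906 bp, 58.18). The first peaks outside were at 4930548K13Rik in pool 1 (10135 bp, 74.03), Rarb in pool 2 (10089 bp, 60.01) and SNORA81 in pool 3 (10095 bp, 105.91).

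Members lay upstream of their nearest start in 48.2% of cases (265 of 550) and IgG members in 55.9% (128 of 229). PAX6 minus IgG was -7.71 points, with an interval that only just left out 0 (-15.2 to -0.00922), and the interval of each pool alone included 0, as did the intervals without pool 1 (-15.0 to 0.835) and without pool 3 (-15.0 to 1.41). With protein-coding starts only, the difference was -3.78 points (-12.7 to 5.23).

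By annotation, 296 members (53.8%) had their centre in an intron, 228 (41.5%) between genes, 12 in a UTR, 7 in a coding exon and 7 in a non-coding exon. Pool 2 and pool 3 held all 12 UTR members (10 and 2) and all 7 members in coding exons (2 and 5), whereas pool 1 and IgG had 0 of either. The UTR share was 4.13% in pool 2 and 1.05% in pool 3, and the coding exon share 0.826% and 2.62%. For pool 1 the upper bound of either share was 3.18%, and for IgG 1.65%. Neighbouring peaks at Gm10800 and Gm10801 are among the coding exon members of pool 3. These shares were not computed for peaks beyond 10 kb or for tiles, so they describe the members only. The nearest gene was protein-coding for 382 members (69.5%), against 151 of 229 for IgG (65.9%), a pseudogene for 59 and a miRNA gene for 16.

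The strongest members differed between the pools. In pool 1 these were the peaks at Chi3l3, the gene of a chitinase-like protein of macrophages (104.81), Klc4, a kinesin light chain gene (94.62), Gm9763 (94.62), Olfr1438-ps1 (91.63) and Mtmr14, the gene of a phosphoinositide phosphatase (89.38). All 5 held a CA or TG repeat of 20 to 38 bp and lay 3052 to 7459 bp from the start. In pool 2 the strongest included those at Gm11161 (312.92), Gm12580 (292.58), and Ccdc85a and a 5S_rRNA gene (221.04 each), and the longest CA or TG run in these 4 was 5 bp. In pool 3, they were 3 peaks at the neighbouring Gm10800 and Gm10801 on chromosome 2 (1451.67, 877.96 and 252.30) and those at Gm14719 (263.30) and the miRNA gene AC122327.1 (247.37). None of these 14 overlapped an IgG peak.

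Member scores lay close to those of peaks farther away. The median percentile of members minus that of the other peaks was -4.18 points in pool 1, 0 in pool 2 and -3.45 in pool 3, a mean of -2.54 ± 2.23 (SD, n = 3). For IgG the difference was -0.447 points.

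Peaks of 2 pools overlapped at 7 places within 10 kb of a start and no place had a peak in all 3 pools. The 14 members concerned are 2.55% of the 550, and 2.57% of all placed PAX6 peaks overlapped a peak of another pool. They make up 2.56% of the members of pool 1 (3 of 117), 2.07% of pool 2 (5 of 242) and 3.14% of pool 3 (6 of 191). Against peaks beyond 10 kb the difference was -0.0309 points (-1.38 to 1.77). For 3 of the 7, 110 bases of the mm9 stretch common to both pools are shown (plus strand, 5′ to 3′, with runs of at least 8 bases in capitals). These bases were chosen to hold the longest run of CA or TG in the stretch and do not stand for all of it. They are chr2:27332729-27332838 at Brd3, chr2:161107495-161107604 at Gm11448 and chr3:153584853-153584962 at Rabggtb. Such runs are not particular to the shared places: 75.6% of all PAX6 members (416 of 550) and 92.6% of IgG members (212 of 229) held one.
Brd3: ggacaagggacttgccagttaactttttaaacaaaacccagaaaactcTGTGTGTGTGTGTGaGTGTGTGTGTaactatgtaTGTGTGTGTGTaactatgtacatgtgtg
Gm11448: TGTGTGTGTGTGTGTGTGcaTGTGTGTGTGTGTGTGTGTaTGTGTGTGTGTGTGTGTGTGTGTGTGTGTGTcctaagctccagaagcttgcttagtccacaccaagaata
Rabggtb: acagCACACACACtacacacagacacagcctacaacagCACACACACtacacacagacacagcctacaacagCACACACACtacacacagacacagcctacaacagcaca

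At Brd3, the gene of a BET family reader of histone acetylation, the 110 bases lie in an intron, with the peak centres 1748 and 1673 bp upstream of the nearest of its starts. The peak scored 69.33 in pool 1 (percentile 77.6) and 113.72 in pool 3 (percentile 60.6). Gm11448, a pseudogene, had intergenic peaks of 79.66 in pool 1 (percentile 88.5) and 68.59 in pool 2 (percentile 42.9), 5426 and 5441 bp upstream. At Arl15, the gene of an ARF-like small GTPase, the intergenic peaks scored 66.57 in pool 2 (percentile 34.5) and 202.49 in pool 3 (percentile 93.6), 4634 and 4772 bp upstream. Rabggtb encodes the beta subunit of the enzyme that attaches lipids to RAB proteins, and its peaks scored 99.69 in pool 2 (percentile 87.1) and 97.10 in pool 3 (percentile 47.2), 8975 and 9142 bp upstream.

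Further shared places were at Wdr95 and Ocm. At Wdr95, inside Gm15997, the peaks scored 60.47 in pool 1 (percentile 45.2) and 53.95 in pool 3 (percentile 5.04). At Ocm, the gene of the calcium-binding protein oncomodulin, they scored 91.57 in pool 2 and 121.38 in pool 3, and this was the only shared place that an IgG peak also overlapped (59.99). An uninterrupted run of CA or TG of 20 bp or more lay in both peaks at Gm11448, Wdr95 and Ocm, whereas at Brd3, Arl15 and Rabggtb the longest run was 9 to 14 bp. Of all PAX6 members, 50.9% held a run of 20 bp or more. The percentiles of the 2 pools at one place lay closest together at Ocm and Brd3, and farthest apart, among the 6 places named, at Arl15.

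**Figure D3:**
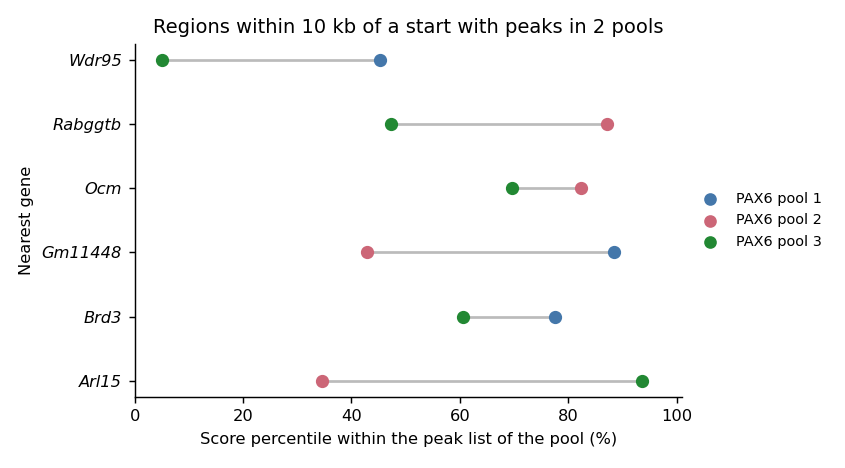
Score percentile within the list of each pool (horizontal axis, 100 is the strongest peak) for 6 of the 7 regions within 10 kb of a start that have overlapping peaks in 2 pools, named by the nearest gene. Each line joins the 2 pools of a region, and at Arl15 pool 2 stands at 34.5 and pool 3 at 93.6.

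Some genes had members of 2 pools at separate places. At Il10ra, the gene of the interleukin 10 receptor, an intron held a peak of 80.89 in pool 1, 6410 bp downstream of a start, and a peak of 68.59 in pool 2, 5197 bp downstream. Dus2l, a tRNA dihydrouridine synthase gene, had a pool 1 peak 7125 bp upstream (67.66) and a pool 3 peak 992 bp upstream (60.03). The peaks nearest to Schip1 scored 84.05 in pool 2 and 58.65 in pool 3 and belonged to different starts of this long gene. Counting every start within 10 kb rather than the nearest, 11 protein-coding genes had peaks of at least 2 pools, which is 0.0492% of 22350. Agfg2 and Sfi1 join the others by this count.

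Overlap with IgG was as common among members as elsewhere. It was seen for 19 of 550 members (3.45%) and for 3.70% of all placed PAX6 peaks, and members and other peaks differed by -0.320 points (-1.92 to 1.73). Pool 1, the pool of the IgG libraries, accounted for 11 of the 19 (9.40% of its members), pool 2 for 4 (1.65%) and pool 3 for 4 (2.09%). By percentile the first 5 were those at Pkd1l2 (129.38, pool 2), Nfrkb, which encodes a subunit of the INO80 complex (180.60, pool 3), Slc45a1 (78.72, pool 1), Kcnab2, a potassium channel beta subunit gene (78.53, pool 1), and Ocm (91.57, pool 2). The highest scoring IgG members were those at Gm9343 (140.93), Defa-ps13 (128.45) and Prkcb, a protein kinase C gene (121.75), and the one at Gm9343 was also a weak pool 1 peak (51.58, percentile 5.70).

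The sequence under the members differed from that under peaks farther away in its CpG content. CpG-rich windows made up 5.82% of members (32 of 550) and 1.38% of the other PAX6 peaks (23 of 1669), a difference of 4.44 points (2.64 to 6.77) that was 2.33 points without pool 2 (0.371 to 5.19). By pool the members had 0.855% in pool 1 (1 of 117), 8.26% in pool 2 (20 of 242) and 5.76% in pool 3 (11 of 191), with differences from peaks beyond 10 kb of 0.855 points (-0.386 to 4.68), 7.10 points (4.07 to 11.3) and 3.07 points (-0.00335 to 7.46). IgG members had 2.18% (5 of 229) and IgG peaks beyond 10 kb 1.29%. Tiles of mm9 were CpG-rich in 2.09% within 10 kb of a start and in 0.359% beyond, so the members of pool 1 and IgG stood at or below the tiles and those of pools 2 and 3 above. Within 1 kb of a start the share was 38.6% in pool 2 (17 of 44), 20.8% in pool 3 (5 of 24), 0 of 7 in pool 1 and 5.00% for IgG (1 of 20), against 10.5% of tiles.

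The CpG-rich members that did not cover a start included, in pool 2, those at Sec31a, a gene of the COPII vesicle coat (208 bp, score 99.69), Tpst2, a tyrosylprotein sulfotransferase gene (265 bp, 62.01), and Trib2, a pseudokinase gene (852 bp, 68.09). In pool 3 they included the peaks at Foxo3, a forkhead transcription factor gene (931 bp, 180.60), and Ccnd3, the cyclin D3 gene (4802 bp, 59.89). The only CpG-rich member of pool 1 lay in an intron of Zp2, a zona pellucida gene (4501 bp, 67.66). These were named after their values were seen.

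Runs of CA or TG of 20 bp or more, called repeats here, were found in 50.9% of members (280 of 550) and in 56.6% of the other PAX6 peaks (944 of 1669), a difference of -5.65 points (-10.4 to -0.856). The call was lost without pool 2 (-4.77 points, -11.2 to 1.67), without pool 3 (-3.24 points, -9.14 to 2.64), with distance limits of 5 kb and 20 kb, at a score of at least 70 and with repeats of at least 30 bp. The pools did not move alike: the difference was 3.75 points in pool 1 (-6.56 to 13.9), -6.59 points in pool 2 (-13.7 to 0.544) and -10.7 points in pool 3 (-18.8 to -2.44). For IgG it was -1.36 points (-8.61 to 5.61), with a repeat in 61.6% of members. PAX6 members had fewer repeats than IgG members by 10.7 points (-18.0 to -3.0 for PAX6 minus IgG). In windows of the size of a tile, 43.1% of PAX6 members and 53.3% of IgG members held such a repeat, against 2.92% of the tiles within 10 kb.

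Close to the start repeats were fewer in pool 2, whereas the interval of the other pools included 0. Over the 3 pools a repeat was present in 32.0% of the PAX6 members within 1 kb (24 of 75) and in 53.9% of those at 1 to 10 kb (256 of 475), a difference of -21.9 points (-32.3 to -9.82), and the latter differed from peaks beyond 10 kb by -2.67 points (-7.74 to 2.37). In pool 2 the shares were 25% (11 of 44) and 57.6% (114 of 198), a difference of -32.6 points (-45.0 to -16.5). In pool 3 they were 33.3% (8 of 24) and 51.5% (-18.2 points, -35.2 to 3.17). Pool 1 had the opposite sign, with 71.4% (5 of 7) against 50.9% (20.5 points, -16.2 to 42.9). IgG members held a repeat in 65.0% (13 of 20) within 1 kb and in 61.2% beyond. With CpG-rich windows left out, members and other PAX6 peaks differed by -3.54 points (-8.46 to 1.35) over the 3 pools and by -9.57 points (-17.9 to -1.14) in pool 3. Only 1 of the 22 start-covering PAX6 peaks held a repeat, that at Gm10801.

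**Figure D4:**
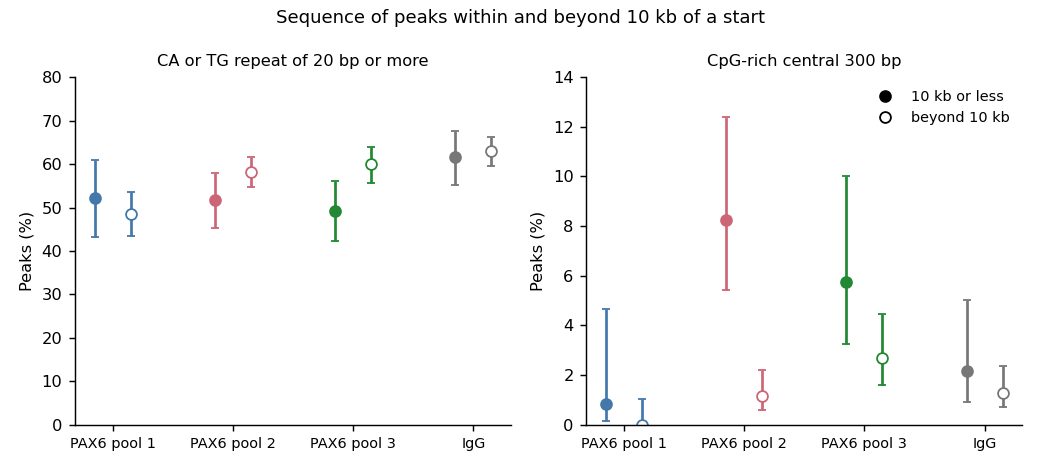
Share of peaks, in percent, with an uninterrupted run of CA or TG of 20 bp or more (left) and with a CpG-rich central 300 bp (right), for peaks 10 kb or less (filled) and farther (open) from a start, by peak list. Bars are Wilson 95% intervals, and CpG-rich windows stand at 8.26% against 1.16% in pool 2 and at 2.18% against 1.29% for IgG.

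The median GC content of the central 300 bp was higher in members than in the other peaks by 2.00 percentage points in pool 1, 1.33 in pool 2 and 0.667 in pool 3, a mean of 1.33 ± 0.667 (SD, n = 3). IgG showed the same 1.33 points, and the tiles had medians of 43.7% within 10 kb and 40.7% beyond.

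Short motifs were searched on both strands of the same 300 bp. They do not contain one another, and a match is a description of the letters only. The GC box GGGCGG was present in 5.27% of members (29 of 550) and in 1.26% of the other PAX6 peaks, a difference of 4.01 points (2.31 to 6.25), and 19 of the 29 were in pool 2. By pool the difference was 3.47 points in pool 1 (0.588 to 8.84) and 6.30 points in pool 2 (3.31 to 10.4). In pool 3 it was 1.47 points, with an interval that included 0 (-0.540 to 4.89). The GC box was present in 0.437% of IgG members. Tiles had it in 4.68% within 10 kb and in 2.18% beyond, so the genome also has more GC boxes near starts. The homeodomain core TAATTA was present in 4.73% of members (26 of 550), in 5.03% of other peaks, in 3.93% of IgG members and in 8.93% of the tiles within 10 kb. The CCAAT box (CCAAT) was present in 21.3% of members, 18.8% of IgG members and 36.9% of tiles, and its share in members ran from 11% in pool 3 to 33.3% in pool 1.

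The core TTCACGC, bound by paired domains, was present in 2 of the 550 members (0.364%), against 0.437% of IgG members and 0.557% of tiles. Both are in pool 2, and their surroundings are shown on the strand of the motif, which is in capitals and has 20 bases on each side. One lies at chr11:104964475-104964521, in a peak 9460 bp upstream of Efcab3 (score 81.89), and the other at chr7:108628591-108628637, in a peak 4636 bp downstream of the start of the miRNA gene Mir139 (84.05). Both are on the plus strand and outside annotated exons.
Efcab3: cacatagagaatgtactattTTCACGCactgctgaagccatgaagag
Mir139: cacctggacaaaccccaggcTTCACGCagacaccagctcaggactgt

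Of all 22350 protein-coding genes, 460 had a start within 10 kb of a PAX6 peak of any pool, which is 2.06%. Pool 1 alone reached 0.438% (98 genes), pool 2 0.944% (211), pool 3 0.725% (162) and IgG 0.805% (180). Most members (422 of 550) had the starts of a single gene within 10 kb and 29 had those of 3 genes or more.

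Gene lists for the gut and for PAX6 held few such genes. Of 36 PAX6 targets known from the eye, the brain and the pancreas, 2 (5.56%) had a start that close, both in pool 1. Atoh7, a transcription factor gene required for retinal ganglion cells, had an intergenic peak at chr10:62559188-62559653, 3484 bp upstream, with a score of 63.26 (percentile 54.5) and a CA or TG repeat of 44 bp. Slc2a2, which encodes the glucose transporter of beta cells and liver, had an intronic peak at chr3:28599190-28599685, 2498 bp downstream, with 51.98 (percentile 8.15) and a repeat of 35 bp. Neither overlapped an IgG peak.

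Of 37 genes linked to Hirschsprung disease or to RET and EDNRB signalling, 0 had a start within 10 kb of a PAX6 peak, and the count was likewise 0 for 25 markers of enteric neurons and glia, 47 genes of neural crest signalling, 18 markers of gut mesenchyme and muscle, 21 markers of gut epithelium, immune cells and endothelium, 76 histone genes and 95 ribosomal protein genes. Lists of this size hold so few genes that a count of 0 cannot be told from the 2.06% of all protein-coding genes. IgG had 1 gene of these lists, Actg2, the gene of a smooth muscle actin. Of the 19 target genes that the study selected on these peaks, 6 (31.6%) had a start within 10 kb, among them Brd3, Arl15, Rabggtb, Il10ra and Wdr95. The study selected genes as nearest to peaks in more than 1 pool, so closeness to a peak was part of that selection. The count is therefore not independent evidence. IgG had 1 of the 19, Wdr95, through another peak (74.19). By the distances that the paper lists, Speer5-ps1 also lay within 10 kb of a start, which it did not by the starts used here.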

How the data were processed

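PAX6 ChIP-seq peaks of EPCs grown as NLBs were analysed. The authors merged the libraries of a pool, or of IgG, aligned them to mm9 by Bowtie and ran MACS for peak calling. Versions of both tools are not given in the sources used here. Deposited lists give positions and a score, the authors' value of -10 times the log10 of the p-value. The paper describes removing peaks that overlap those of IgG. In the lists used here, 82 of 2219 placed PAX6 peaks overlapped an IgG peak. No reads or counts were used, so depth is unknown. Libraries were grouped by the labels.

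Distances ran from the peak centre to the nearest of all transcript starts of GENCODE M1 on mm9, for peaks on chromosomes 1 to 19 and X. Of several genes at a start a protein-coding one was named. Shares have Wilson and differences Newcombe 95% intervals, called when they leave out 0, without adjustment: of 94 differences, 28 were called. No test over pools was made: an exact permutation test over 3 pools, of near against far peaks (two-sided) or against the IgG list (one-sided), cannot go below p = 0.250. CA or TG repeats were uninterrupted and at least 20 bp long, overlaps at least 1 bp. The genome was cut into 8518777 tiles of 300 bp. Gene symbols newer than GENCODE M1 were matched through RefSeq synonyms. Alternatives covered distance limits, gene types, peak edges, scores, IgG overlap, chromosome X, pools, repeat length, overlap and window.

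Members and lists were chosen with earlier results of these data known. The genes named cover a start, head a list, are shared by pools or overlap IgG by rank, belong to the gene lists or lie at the limit. The comparisons of starts covered, of CpG-rich windows, of pools with each other, and of repeats and CpG-rich windows in members within 1 kb against those at 1 to 10 kb, were added after the data were seen. Scripts were tested on simulated data and ran under Python 3.11.15 with samtools 1.23.1, matplotlib 3.10.9, pysam 0.24.0, scipy 1.17.1 and numpy 2.4.6. Some items are not reported here.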

Additional observations from a re-analysis of the deposited data

Results flagged for a closer look

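Peaks on sequences that mm9 does not place on a chromosome position have no transcript start to measure from and were in no comparison. They made up 1.36% of the peaks of pool 2 (14 of 1032) and 1.66% of those of pool 3 (12 of 724), above the 0.0993% of IgG (1 of 1007). The differences were 1.26 points (0.542 to 2.17) and 1.56 points (0.714 to 2.78). In pool 1 the share was 0.407% (2 of 491) and the difference from IgG, 0.308 points, was within counting error (-0.240 to 1.38).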

How the results depend on the processing

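No paired analysis was possible because the libraries of each pool were merged before peak calling and the lists carry no replicate numbers. The 12 results had 119 alternatives. Of these alternatives, 89 kept direction and side of the threshold, stayed within the spread or, for the gene count, within a set ratio. The CpG-rich difference did so in all 10 of its alternatives, though its size ran from 2.33 points without pool 2 to 7.59 at 5 kb, and the share within 10 kb did so in all 10. Tiles of mm9 were also CpG-rich more often within 10 kb of a start (2.09%) than beyond (0.359%). A CpG-rich difference above 0 is therefore not particular to the peaks. Limits: the spread between libraries and the depth are unknown, and scores cannot be compared between lists. The causes of the following shifts were not tested. The excess of PAX6 members within 1 kb became a call at 500 bp (6.54 points), without pool 1 and without pool 3, and ran from 1.33 to 6.97 points with each pool left out. The upstream difference lost its call at 5 kb (-5.90), at 20 kb (-4.06) and with protein-coding starts only (-3.78), and ran from -9.47 to -6.87 with each pool left out, losing the call without pool 1 (-7.17) or pool 3 (-6.87). The repeat difference lost it at 5 kb (-5.81), at 20 kb (-3.38), at a score of at least 70 (-6.54) and with repeats of at least 30 bp (-4.71), and ran from -8.33 to -3.24 with each pool left out, losing the call without pool 2 (-4.77) or pool 3 (-3.24). The share covering a start lost its call at a score of at least 70 (5.12) and ran from 1.51 to 4.64 with each pool left out, losing it without pool 2. The excess of pool 2 over pool 1 within 1 kb lost its call with a 2 kb limit (7.61) and at a score of at least 70 (2.25). Differences near 0 changed sign: overlap with IgG at 5 kb (0.564) and 20 kb (0.0836), with -0.928 to 0.694 over pools left out, and overlap between pools at 20 kb (0.258) and with protein-coding starts only (0.439), with -0.157 to 0.291 over pools left out. At a score of at least 70 the percentile difference was 2.51 and the GC difference 0.667. The count of 460 genes was 245 at 5 kb, 825 at 20 kb, 214 at a score of at least 70 and 257 to 366 with each pool left out.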

Other observations

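Some genes had 2 members from the same pool. In pool 3, introns of Itpr2, which encodes a calcium release channel of the endoplasmic reticulum, held a peak of 159.13 and one of 60.57, 4902 and 4254 bp upstream of different starts. Kcnk9, the gene of a background potassium channel, had an intronic peak of 96.54 and an intergenic peak of 105.46, 6170 bp downstream and 6181 bp upstream of the same start. Abcg5, a sterol transporter gene, had neighbouring intronic peaks of 53.10 and 53.95 in the same pool, both with CA or TG runs of 36 and 40 bp. In pool 1, Gm14266 had peaks of 67.09 and 60.47, and the second overlapped an IgG peak.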
